A study of Mus musculus with 6 samples.

Results

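The gene Slc10a7 (ENSMUSG00000031684.9) gave rise to 11 of the 3662 circRNAs of the deposited table, and these 11 circRNA isoforms are described here. They were chosen by position, as all circRNAs of the plus strand that lie within the gene at chr8:81033234-81257904 (mouse build mm9), and the gene itself was chosen for its number of isoforms and for their shares over the stages. Those numbers and shares are therefore given as a description, without a test. Slc10a7 stood at rank 3 of 2017 parental genes by number of circRNAs, tied with Fndc3b, and at rank 7 by their summed reads.

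The study followed white adipogenesis in the stromal vascular fraction (SVF), a mixture of the cells that surround adipocytes, from inguinal fat of female C57BL/6 mice (C57BL/6J in the methods) that were 6 weeks old. Proliferating cells were sampled on day 0 (D0), before induction at 90% confluence. Differentiating cells were sampled on D4, after 4 days with insulin at 2.85 mM, dexamethasone at 0.3 mM and IBMX at 0.63 mM in medium with 10% serum, and mature cells on D8, after a further 4 days with 200 nM insulin and 10 nM T3. Each stage had 2 libraries of RNA depleted of rRNA and linear RNA, and the labels name no genetic change in the mice. An SVF culture holds endothelial cells, pericytes and immune cells beside preadipocytes, and fewer cells of a type and less RNA per cell cannot be told apart in these bulk libraries.

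A circRNA is a covalently closed RNA made by back-splicing, in which a downstream exon end is spliced back onto an upstream exon start of the pre-mRNA. One gene can form several circles when one splice site pairs with several others, and the circles then share part of their sequence. Slc10a7 encodes a multi-pass membrane protein of the family that also holds the sodium-dependent bile acid transporters, and it is known for roles in glycosaminoglycan synthesis in the Golgi apparatus, in skeletal development and in the control of calcium entry.

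Each circle is named here by its first and last exon, so e2-5 runs from exon 2 to exon 5 in the longest annotated transcript, which has 12 exons (GENCODE release vM1). The reads that were counted cross the back-splice, so they identify the first and the last exon, and the exons between them are inferred from the annotation. The sequences over the back-splices are shown because they are the only part of each circle that tells it apart from the linear RNA. In each line the last 25 bases of the circle are in lower case and its first 25 bases are in capitals, read 5′ to 3′ on the plus strand.
e2-5: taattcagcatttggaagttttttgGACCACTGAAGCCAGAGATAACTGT
e2-4: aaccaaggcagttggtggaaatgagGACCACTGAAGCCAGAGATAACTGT
e2-10: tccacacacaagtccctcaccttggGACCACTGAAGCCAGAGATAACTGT
e2-6: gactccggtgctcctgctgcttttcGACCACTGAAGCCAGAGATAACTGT
e2-u2: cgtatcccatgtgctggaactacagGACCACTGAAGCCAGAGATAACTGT
e3-4: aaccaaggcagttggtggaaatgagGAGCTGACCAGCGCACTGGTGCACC
e7-10: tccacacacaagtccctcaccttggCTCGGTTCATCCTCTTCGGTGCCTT

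The first 5 lines share the capitals, which are the start of exon 2, and differ in the end that was joined to it. The lines of e2-4 and e3-4 share the lower-case bases and differ in the capitals, which in e3-4 are the start of exon 3. The lines of e2-10 and e7-10 share the end of exon 10.

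The isoforms lie at chr8:81039485-81102656 (e2-5), chr8:81039485-81055057 (e2-4), chr8:81039485-81230847 (e2-10), chr8:81039485-81186921 (e2-6), chr8:81049061-81055057 (e3-4), chr8:81049061-81102656 (e3-5), chr8:81186886-81230847 (e6-10) and chr8:81210484-81230847 (e7-10). The exons they begin and end with are coding exons, and none of these circles holds exon 1 or the last exon. The other 3 isoforms begin at exon 2 or exon 3 and end within an intron. The positions u1 in intron 4 and u2 in intron 5 served as these ends. e2-u1 lies at chr8:81039485-81078920, e3-u1 at chr8:81049061-81078920 and e2-u2 at chr8:81039485-81113148.

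The ends u1 and u2 are 23863 bases past exon 4 and 10492 bases past exon 5. Their surroundings are shown because no annotated exon ends there, with the last 30 bases of the circle in lower case and the 10 genomic bases that follow in capitals.
u1: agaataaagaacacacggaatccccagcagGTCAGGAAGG
u2: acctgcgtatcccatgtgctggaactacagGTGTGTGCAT

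A GT, the dinucleotide with which most introns begin, followed both of these ends and the ends of all 11 isoforms, and an AG preceded all 11 starts. CIRI2, the caller that produced the table, requires such splice signals, so their presence is not a separate finding. Of the 11 isoforms 8 had both ends at annotated exon ends, where 91.78% of all circRNAs of the table had.

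The intron before exon 2 holds 5911 bases, and the introns after exons 4, 5, 6 and 10 hold 47560, 84229, 23562 and 22669 bases. The medians over the 3338 circRNAs with both ends annotated were 10447 bases upstream and 8208 bases downstream. The downstream introns of the exon 2 circles with annotated ends were thus each longer than the median, and the shared upstream intron was shorter. The genomic span of e2-10 was 191363 bases, and 0 circRNAs of the table spanned more. Of the 11 isoforms 5 spanned 50000 bases or more, against 4.56% of all circRNAs, whose median span was 7492 bases.

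**Figure D1:**
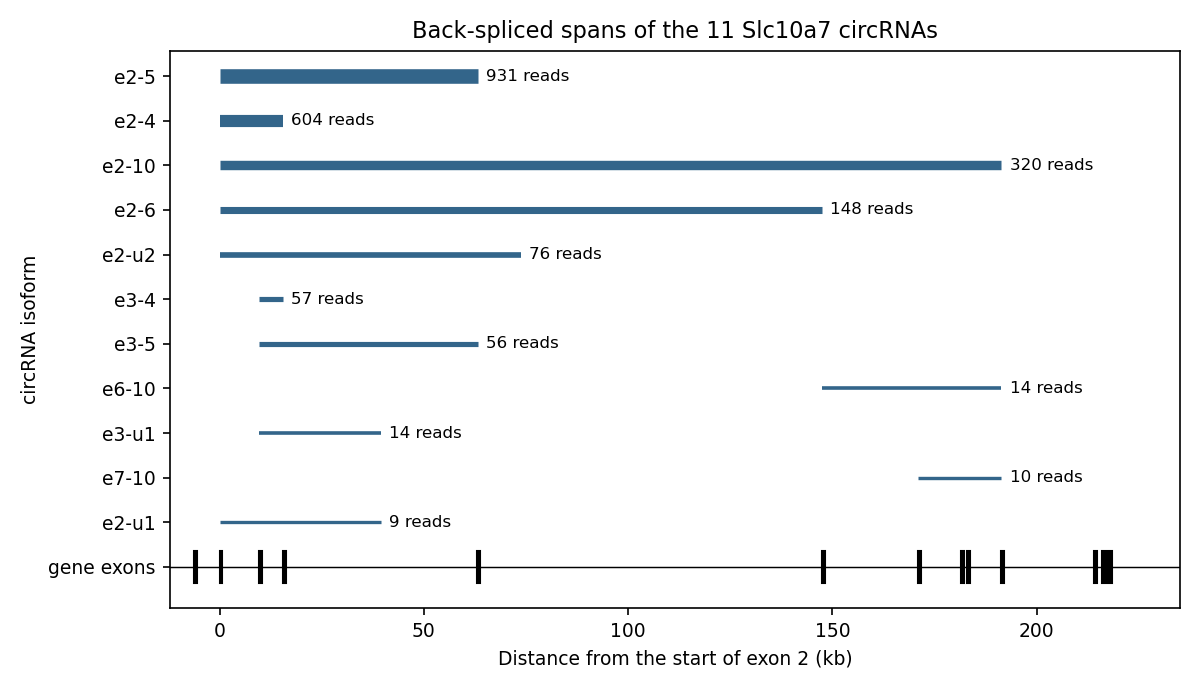
Genomic span of each Slc10a7 circRNA, in kb from the start of exon 2, with line width growing with its total reads over the 6 libraries and the annotated exons as black bars below. The 6 circles that start at exon 2 end at 6 positions, and the longest of them spans 191363 bases.

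After splicing, e2-4, e2-5, e2-6 and e2-10 would hold 296, 335, 371 and 747 bases. The spliced lengths of e2-10, e3-4 and e3-5 are multiples of 3, as are those of 36.28% of the 3338 circRNAs. The circle e2-4 is printed whole because it was read in every library. Its 83 bases of exon 2 and 76 bases of exon 4 are in lower case and the 137 bases of exon 3 in capitals.
e2-4 circle: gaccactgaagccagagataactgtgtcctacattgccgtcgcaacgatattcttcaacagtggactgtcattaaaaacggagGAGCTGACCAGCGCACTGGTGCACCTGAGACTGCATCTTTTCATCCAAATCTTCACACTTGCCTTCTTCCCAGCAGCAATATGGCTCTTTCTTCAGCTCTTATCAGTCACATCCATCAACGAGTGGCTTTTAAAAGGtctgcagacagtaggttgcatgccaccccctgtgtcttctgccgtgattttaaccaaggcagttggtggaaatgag

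Both e2-4 (mmu_circ_0014993) and e3-4 (mmu_circ_0014994) carry a circBase identifier. The other 9 isoforms carry none in the table, whereas 35.61% of all its circRNAs carry none. The other annotated transcripts each lack 1 or 2 of the exons 2, 7, 9 and 10, so e2-10 in particular could hold other exons than the ones inferred.

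The libraries held 30110 to 50672 circRNA reads, so 1 read was worth 19.7 to 33.2 circCPM, the reads per 1000000 circRNA reads of a library. The table holds no value of 1, so a listed 0 can hide a single read. A circRNA was listed at 0 in 1 library of a stage and with 15 or more reads in the other for 26, 29 and 64 circRNAs on D0, D4 and D8. For e2-5 on D0 the libraries held 0 and 83 reads, and no other circRNA of the table had as large a gap of this kind. The labels do not say whether the libraries of a stage came from separate mice, so p-values measure the spread between these libraries.

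Summed over the isoforms, Slc10a7 circRNA rose from D0 to D4 and lay between those stages on D8. The libraries held 96 and 184 Slc10a7 reads on D0, 667 and 520 at D4, and 334 and 438 at D8. The level was 4442 ± 1772 circCPM on D0, 13985 ± 2124 at D4 and 8003 ± 907 at D8 (mean ± SD, n = 2 each). The ranges of the stages did not overlap, with D0 lowest and D4 highest. Slc10a7 made up 0.319% and 0.569% of the circRNA reads on D0 and 1.55% and 1.25% on D4.

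Reads were tested with edgeR's quasi-likelihood test with Benjamini-Hochberg adjustment, over all circRNAs or parental genes that passed a filter on low counts. On the summed reads the test of the 3 stages gave an adjusted p of 0.0124 for Slc10a7 in edgeR, at rank 31 of 1108 parental genes, of which 8.94% were called. D4 exceeded D0 by 1.80 on the log2 scale (SE 0.282, edgeR adjusted p = 0.00549), where 8.66% of genes were called. D8 exceeded D0 by 0.92 (SE 0.279), which did not pass (edgeR adjusted p = 0.0736, 6.5% of genes called). D8 was lower than D4 by a log2 difference of -0.88 (SE 0.271), which did not pass either (edgeR adjusted p = 0.144, 0.0903% of genes called). Over 12 alternatives the adjusted p of the 3-stage test ran from 3.68e-07 to 0.0639, and that of D4 against D0 from 8.7e-08 to 0.0417. D8 against D0 passed with DESeq2 (0.0342) and without D0 replicate 2 (1.43, adjusted p = 0.0352). Without D0 replicate 1, which lists e2-5 at 0, D4 minus D0 was 1.49 (edgeR adjusted p = 0.0124). Leaving out D4 replicate 1 (0.0639) or D8 replicate 1 (0.0579) ended the 3-stage call. The choice of the gene was made with such results known, so these p-values describe the fit and are not independent support.

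Of the 11 isoforms 7 passed the filter, and 1, e2-10, was called across the 3 stages, where 1.14% of 1407 circRNAs were called. Between D4 and D0 1 was called (e2-10), against 3.27% of all. By edgeR 0 were called between D8 and D0 and 0 between D8 and D4, where 1.49% and 0.0711% of all were called. DESeq2 called 0 in both, where it called 1.56% and 0.0819% of all circRNAs it tested. At an unadjusted p under 0.05 the 4 comparisons held 3, 4, 1 and 3 of the 7 isoforms, where 21.0%, 19.9%, 18.8% and 12.2% of all circRNAs tested passed the same limit. The median log2 change of the 7 isoforms was 2.30 from D0 to D4, 1.40 from D0 to D8 and -0.77 from D4 to D8, beside 0.03, 0.05 and -0.01 over all circRNAs tested. These isoforms share a gene and most of them a splice site, so they are not separate observations.

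**Figure D2:**
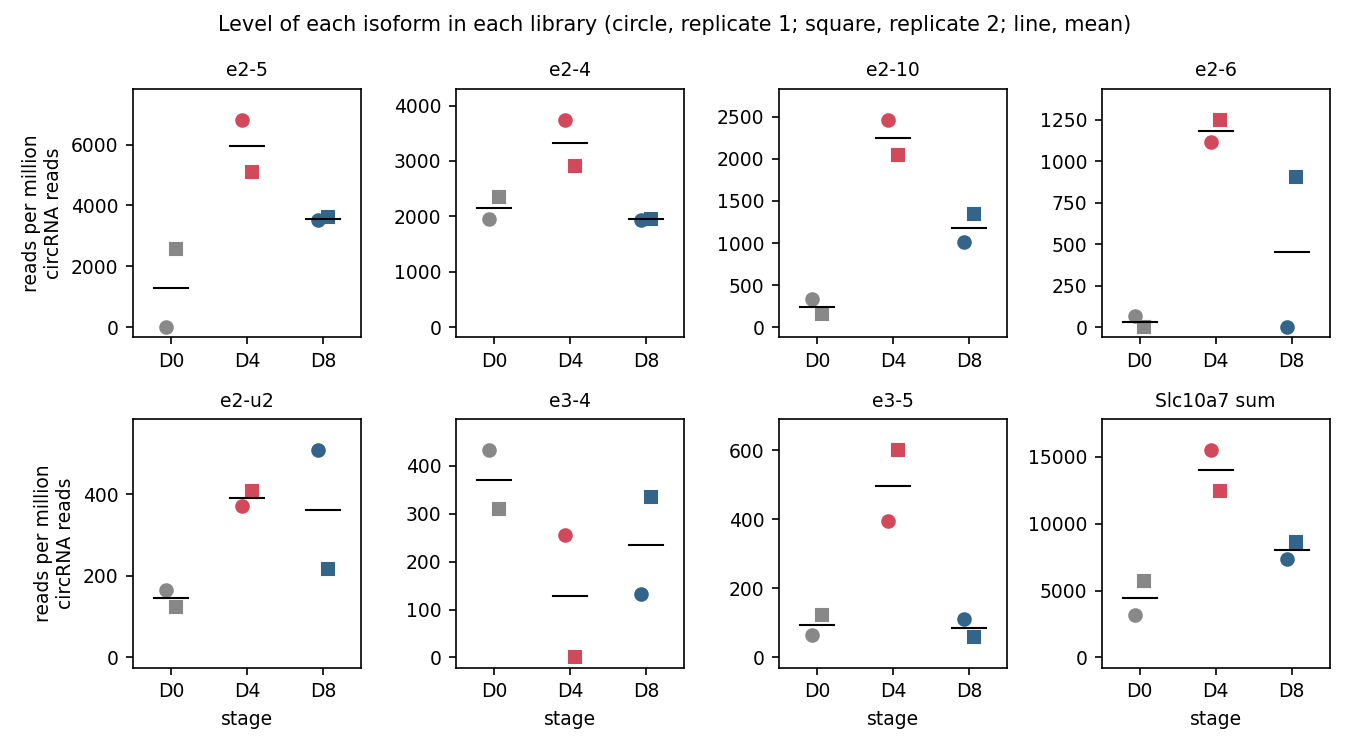
Level in circCPM (reads per 1000000 circRNA reads) of the 7 isoforms tested and of the sum of all 11 in each library, by stage. The summed level is highest in the 2 D4 libraries, and e2-5 is at 0 in one D0 library, with 2569 circCPM in the other.

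Isoforms that begin at exon 2 held most of the reads. The isoform e2-5, the leading one with 931 of the 2239 Slc10a7 reads, was counted 0 and 83 times on D0, 293 and 212 times at D4, and 159 and 184 times at D8. Its levels were 0 and 2569 circCPM on D0, 6803 and 5089 at D4, and 3504 and 3631 at D8. Both D4 libraries were higher than all others, and the D0 libraries differed from each other more than those of D4 or D8. The D4 level exceeded D0 by 2.30 on the log2 scale with an SE of 1.09. This did not pass (edgeR adjusted p = 0.309, DESeq2 adjusted p = 0.866). Without D0 replicate 1, the library at 0, the difference was 1.33 (SE 0.26). The D8 level exceeded D0 by 1.56 (SE 1.08, edgeR adjusted p = 0.485), and by 0.61 without D0 replicate 1. Without D0 replicate 2 the D0 stage is at 0, so no fold is given. The outcome of the test of D4 against D0 changed when either D0 library was left out. That of D8 against D0 changed without D0 replicate 2. Each of these fits held a single D0 library.

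The isoform e2-4 was read in every library, with 59 and 76 reads on D0, 161 and 121 at D4, and 88 and 99 at D8. Its levels were 1959 and 2352 circCPM on D0, 3738 and 2905 at D4, and 1940 and 1954 at D8. The D4 libraries were the highest, and the D8 libraries lay just below the lowest of D0. Its D4 level differed from D0 by 0.71 on the log2 scale (SE 0.262) and its D8 level from D0 by -0.05 (SE 0.264). Neither passed (edgeR adjusted p = 0.174 and 0.944).

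The isoform e2-10, which joins exon 10 to exon 2, was counted 10 and 5 times on D0, 106 and 85 times at D4, and 46 and 68 times at D8. Its levels were 332 and 155 circCPM on D0, 2461 and 2040 at D4, and 1014 and 1342 at D8, so the stages did not overlap. It was the isoform that the test called across the stages (edgeR adjusted p = 0.0447, from 0.00245 to 0.127 over 12 alternatives). D4 exceeded D0 by 3.29 on the log2 scale (SE 0.449, edgeR adjusted p = 0.0225, from 0.000892 to 0.0808 over 13 alternatives). This difference was 3.96 without D0 replicate 1 and 2.85 without D0 replicate 2, and it was 3.12 and 3.48 without D4 replicate 1 and 2. The D8 level exceeded D0 by 2.36 (SE 0.449), just outside the threshold (edgeR adjusted p = 0.0555), and differed from D4 by -0.93 (SE 0.378, edgeR adjusted p = 0.360). D8 against D0 passed without D0 replicate 1 (3.04, edgeR adjusted p = 0.0275) and without D8 replicate 1 (2.58, 0.0466), and over 13 alternatives its adjusted p ran from 0.0275 to 0.108. The calls across the stages and for D4 against D0 were lost without D4 replicate 1 or 2. The across-stage call was also lost with column totals (0.0505), with a mean of 5 or more reads (0.0509) and with a replicate block (0.0757).

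The isoform e2-6 was counted 2 and 0 times on D0, 48 and 52 times at D4, and 0 and 46 times at D8. Its levels were 66.4 and 0 circCPM on D0, 1114 and 1248 at D4, and 0 and 908 at D8. Both D4 libraries were higher than the others, and the D8 libraries were far apart, at 0 and 908 circCPM. D4 exceeded D0 by 5.15 on the log2 scale (SE 1.74, edgeR adjusted p = 0.147). This difference was 5.18 without D8 replicate 1, the library listed at 0, and equally without D8 replicate 2. It passed with only these 2 stages fitted (edgeR adjusted p = 0.0391). In that fit e2-6 passed the low-count filter only through its D4 libraries, so the filter favoured this difference. Over 13 alternatives the adjusted p ran from 0.0116 to 0.499. The difference was 4.19 without D0 replicate 2 (edgeR adjusted p = 0.318), and without D0 replicate 1 the D0 stage is at 0, so no fold is given (0.228).

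The D8 level of e2-6 rests on the libraries with 0 and 46 reads. D8 minus D0 was 3.78 (SE 1.80, edgeR adjusted p = 0.314) and 4.80 without D8 replicate 1 (0.0291). D8 minus D4 was -1.37 (SE 1.21, edgeR adjusted p = 0.733) and -0.38 without D8 replicate 1 (0.902). Without D8 replicate 2 the D8 stage is at 0, so no fold is given. D8 was then below both other stages, and e2-6 passed the low-count filter only through its D4 libraries. The calls of both D8 comparisons and the direction of D8 against D0 depended on which D8 library was kept.

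The isoform e2-u2, which ends in intron 5, was counted 5 and 4 times on D0, 16 and 17 times at D4, and 23 and 11 times at D8. Its levels were 166 and 124 circCPM on D0, 371 and 408 at D4, and 507 and 217 at D8. All libraries after induction were above both D0 libraries, and D8 overlapped D4. The difference of D4 and D0 of 1.50 on the log2 scale (SE 0.735) did not pass (edgeR adjusted p = 0.324).

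The other 6 isoforms had fewer reads, a mean under 10 in each case. Of these, e3-4 held 0 to 17 reads a library and e3-5 held 2 to 25. e3-5 had its 2 highest counts on D4, and it passed the filter only through them. Its D4 level differed from D0 by 2.43 (SE 0.848) and from D8 by a D8 minus D4 value of -2.51 (SE 0.823). The filter thus favoured these differences. Neither passed (edgeR adjusted p = 0.156 and 0.283). The D4 level of e3-4 differed from D0 by -1.41 on the log2 scale, with an SE of 1.25 (edgeR adjusted p = 0.610). It was -0.38 without D4 replicate 2, the library at 0. Without D4 replicate 1 the D4 stage is at 0, so no fold is given, and the difference did not pass (edgeR adjusted p = 0.212). The isoforms e6-10 (0 to 6 reads), e3-u1 (0 to 7), e7-10 (0 to 6) and e2-u1 (0 to 5) did not pass the filter. Both libraries of e7-10 held reads only on D8, at 4 and 6. Against the 0 of the other stages no fold change is given.

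**Figure D3:**
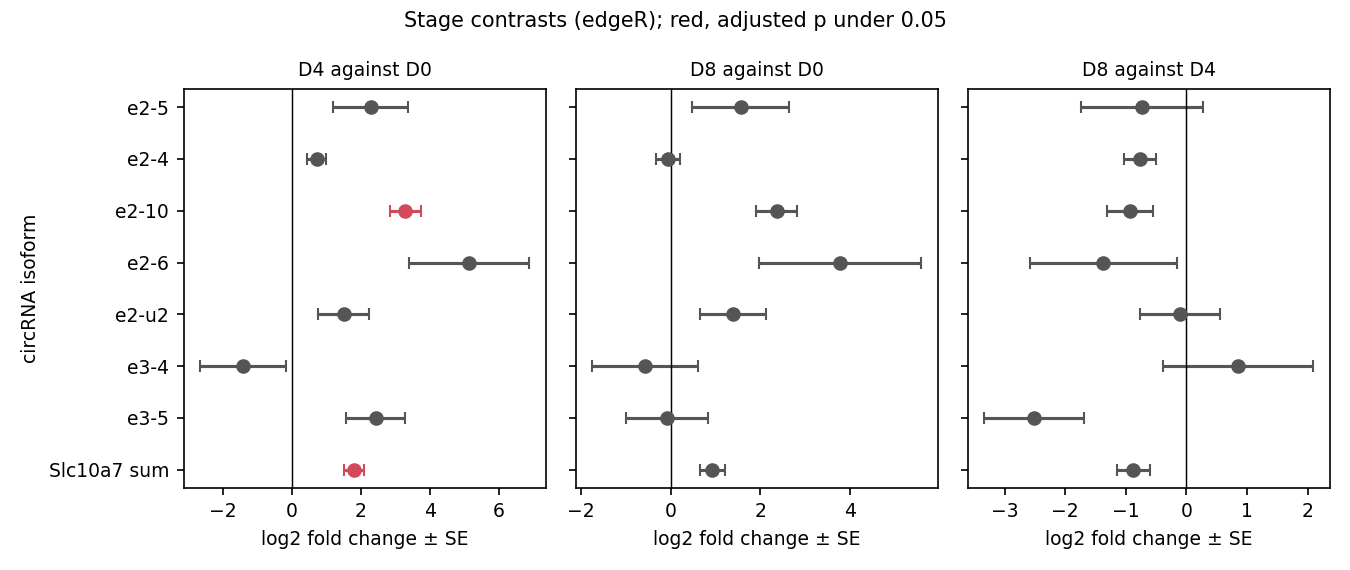
Log2 fold change with its SE (edgeR) for the 7 isoforms tested and for the summed reads of all 11, for each pair of stages. Red points, with an adjusted p under 0.05, are e2-10 and the sum for D4 against D0.

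The reads of Slc10a7 gathered at a single start. Exon 2 was the start of 93.3% of the 2239 reads, exon 3 of 5.67% and exons 6 and 7 of the rest. Reads ended at exon 5 for 44.1%, at exon 4 for 29.5%, at exon 10 for 15.4% and at exon 6 for 6.61%. Where exons 2 and 3 were both joined to the same end, exon 2 had 604 reads against 57 at the end of exon 4, and 931 against 56 at the end of exon 5. At u1 exon 2 had 9 reads against 14 for exon 3.

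The start at exon 2 held 79.2% and 92.4% of reads on D0, 94.3% and 94.0% at D4, and 94.6% and 93.2% on D8. The library with 0 reads of e2-5 was the one with 79.2%. The share of e2-4 was 61.5% and 41.3% on D0 (Wilson 95% intervals 51.5 to 70.6% and 34.4 to 48.5%). It was 24.1% and 23.3% at D4 and 26.3% and 22.6% at D8. The share of e2-4 on D0 was thus above that of every later library in both replicates, and the 61.5% was measured in the library with 0 reads of e2-5.

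The share of e2-10 was 10.4% and 2.72% on D0 (Wilson 95% intervals 5.76 to 18.1% and 1.17 to 6.20%). It was 15.9% and 16.3% at D4 and 13.8% and 15.5% at D8. The share of e2-10 was lowest in both D0 libraries, which held 10 and 5 reads of it. Per 100 reads of e2-4 there were 16.9 and 6.58 reads of e2-10 on D0, 65.8 and 70.2 at D4, and 52.3 and 68.7 on D8.

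The share of e2-5 was 0% and 45.1% on D0, 43.9% and 40.8% at D4, and 47.6% and 42.0% on D8. Apart from the library at 0 these shares lay between 40.8% and 47.6%, and without that library D4 differed from D0 by -2.76 points instead of 19.8. The effective number of isoforms, which counts isoforms weighted by their share (the exponential of the Shannon entropy), was 3.58 and 3.31 on D0, 4.69 and 4.77 at D4, and 4.02 and 4.86 on D8. Both D0 libraries were below all others, at a lower depth of Slc10a7 reads, and the part of depth in this was not tested.

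**Figure D4:**
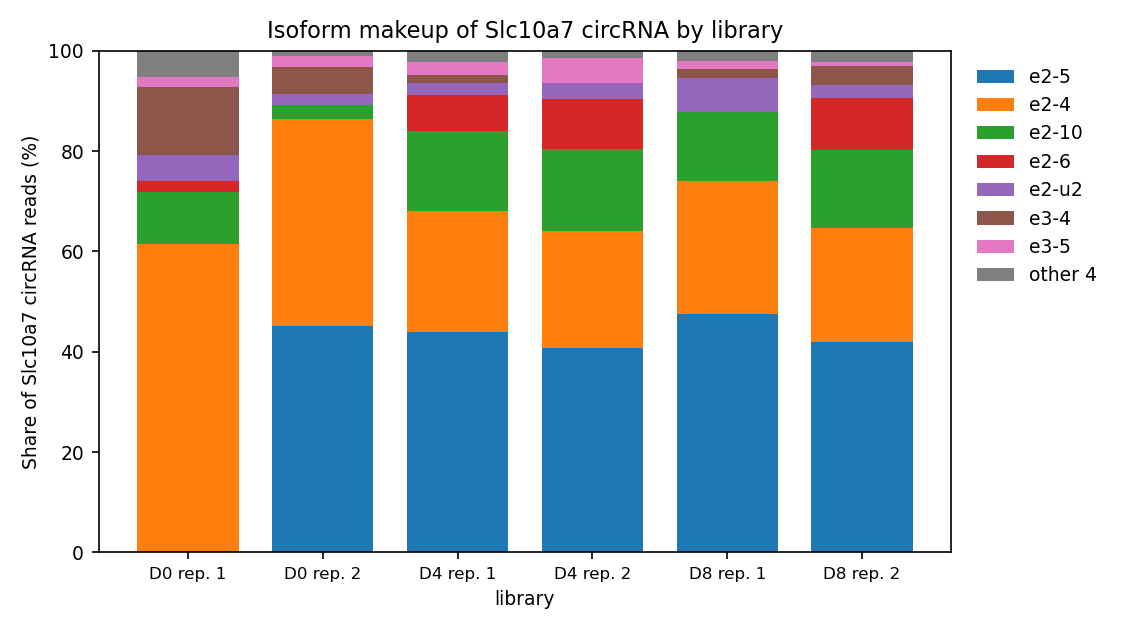
Share of Slc10a7 circRNA reads of each isoform, as stacked bars of 100% per library, with the 4 isoforms of fewest reads added together. In both D0 libraries e2-4 has a share of 41.3% or more and in the other 4 libraries a share of 22.6 to 26.3%.

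By a rule of 2 or more reads in both libraries of a stage, 5 isoforms were detected on D0, 8 at D4 and 8 at D8. Of the 11, 4 (e2-4, e2-10, e2-u2 and e3-5) were detected in all 3 stages and 5 in 1 stage only, where 27.6% and 46.8% of all circRNAs of the table were. e6-10, e2-u1 and e2-6 were detected on D4 only, and e3-u1 and e7-10 on D8 only. The deposited table keeps circRNAs that pass this rule in a stage, so each isoform had to be detected somewhere.

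Arhgap10, Rere and Fndc3b, the other genes with 11 or more circRNAs, gathered a smaller share of their reads at a single start than Slc10a7. This share was not computed for further genes. Arhgap10 had 20 circRNAs, Rere 13 and Fndc3b 11. The most used start held 44.7% of the reads of Arhgap10, 53.0% of those of Rere and 55.4% of those of Fndc3b, beside 93.3% for Slc10a7. The most used end held 52.7%, 38.0% and 55.6% in these genes, and 44.1% in Slc10a7, which lay within their range. Slc10a7 used 4 starts and 6 ends. Fndc3b, with as many circles, used 5 positions at the lower genomic side and 9 at the higher. These were counted without regard to its strand. The leading isoform held 41.6% in Slc10a7 and 34.0%, 18.6% and 39.7% in the others, and its median was 41.6% over the 113 genes with 5 or more circRNAs. These are shares of reads over all libraries and were not tested.

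MicroRNA seeds (bases 2 to 8) of families studied in adipocytes were searched in the 8 circles with annotated ends, on the circular spliced sequence and on the RNA strand. The mature sequences are from RefSeq and are shown for the family searched first and for the only one with a match, the seed in capitals.
miR-30a-5p: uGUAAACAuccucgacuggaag
miR-15b-5p: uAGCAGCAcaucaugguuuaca

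The letters TGTTTAC, the complement of the miR-30 seed, were in none of the 8 circles, and in 2.30 to 4.37% of annotated circles of like length. The letters TGCTGCT, the complement of the miR-15b seed, were once each in e2-10, e2-6 and e6-10. They were in 14.98%, 10.07% and 10.54% of annotated circles whose length was within 20% of each. The seeds of miR-183, miR-96, miR-24 and miR-98 had 0 matches, and their letters were in 1.03 to 7.96% of annotated circles of like length. A match is a description of letters and not a binding site.

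Some parental genes had summed levels that moved like those of Slc10a7. Over the 6 libraries and 172 genes with a mean of 50 or more summed reads, the highest Pearson r of log2(circCPM + 10) with Slc10a7 was 0.99 for Hibadh, a dehydrogenase of valine catabolism. The next were Eri3 (0.99), Fndc3b (0.98), Cdk8 (0.97), the kinase of the Mediator complex, and Tmem164 (0.97). Hibadh, with 1 circRNA, had 588 ± 175 circCPM on D0, 2110 ± 234 at D4 and 1217 ± 37.5 at D8 (mean ± SD, n = 2). All points come from 3 stages and the same 6 libraries, so r describes a shared order of stages.

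Of the 7 members of the SLC10 family only Slc10a7 had circRNAs in the table. In a list of 49 genes of glycosaminoglycan synthesis and the Golgi 12 had circRNAs and 4 were tested. Across the stages their adjusted p from edgeR ran from 0.143 for Ust, a uronyl 2-sulfotransferase, to 0.755. The genes Csgalnact1, Chsy1 and Ust had the most reads, with 682, 878 and 706 circCPM on D0, 295, 863 and 1326 at D4, and 534, 399 and 1340 at D8. Of 17 genes of store-operated and ER calcium handling 4 had circRNAs and 2 were tested. Trpc6, a calcium-permeable channel, had 33 and 35 reads on D0, 3 and 0 at D4, and 12 and 8 at D8. Its D4 level was lower than D0, by a log2 difference of -4.69 (edgeR adjusted p = 0.0133). Trpc6 could pass the low-count filter only with its D0 libraries, where it was highest, so the filter favoured this difference. The size of the fold rests on the 3 and 0 reads of D4. The other gene tested, Itpr2, an IP3 receptor, had 0 reads in both D0 libraries, 6 and 12 reads at D4, and 9 and 14 at D8 (edgeR adjusted p = 0.101 across the stages).

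Of the 12 adipocyte markers 5 had circRNAs. Their summed level was 124 to 764 circCPM on D0, 1045 to 1152 on D4 and 2546 to 2755 on D8. Pparg, the master regulator of adipocytes, was at 0 in both D0 libraries, with 13 and 18 reads on D4 and 24 and 29 on D8. Cd36, Lpl and Lipe had reads on D8 only, with 20 and 17 reads for Cd36. Across the stages Pparg and Cd36 passed (edgeR adjusted p = 0.0212 and 0.0468). Both had passed the low-count filter only through the stages where they had reads, so the filter favoured these calls. Acaca had 23 and 4 reads on D0, 32 and 30 at D4, and 69 and 60 at D8. It did not pass between D4 and D0 (edgeR adjusted p = 0.443). Of 6 preadipocyte markers 1, Pdgfra, had a circRNA, with 8 and 10 reads on D0, 3 and 0 at D4, and 4 and 5 at D8. The endothelial, pericyte and immune markers, 3 of each, had no circRNA in the table, so those cells could not be followed. The summed adipocyte markers were higher at each later stage, from D0 to D4 through Pparg and Acaca alone. Slc10a7 was highest on D4, and the part of cell makeup in the Slc10a7 levels was not tested.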

How the data were processed

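The authors trimmed reads with fastp, aligned them to mm9 with BWA-MEM and called circRNAs with CIRI2. The deposited values are a raw count of back-splice reads per circRNA and library, without normalization, and the labels also name FastQC 0.11.9 and HISAT2 2.2.0. All 6 libraries were used. Parental genes and exons came from GENCODE vM1 and sequences from mm9. Counts were tested in R 4.3.3 with edgeR 4.0.16 (TMM, filterByExpr with a minimum count of 10 and a minimum total of 15, library sizes from column totals, adjusted p threshold 0.05), and stage pairs were contrasts of that fit. DESeq2 1.42.0 was an alternative, beside other scalings, filters, a replicate block and each library left out, where a lone library was taken to vary like the others. Levels, shares and figures were made in Python with numpy and pandas. Scripts were tested on simulated data. Wilson intervals cover counting error only, as reads lack molecular identifiers and can be copies of one molecule.

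Every isoform was named, with values in each library where its mean was 10 or more reads. The genes named beside Slc10a7 are the 5 with the most similar levels and 3 with many isoforms. Genes of the pathway lists are named where they passed a test or had the most reads, and marker genes where they had circRNAs. The members and lists were chosen with earlier results of these data known. Tests of the shares and of isoform usage were computed but are not printed, as the shares had served to choose the gene.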

Additional observations from a re-analysis of the deposited data

How the results depend on the processing

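With 2 libraries a stage, calls moved with single libraries. Across the 3 stages 1 isoform was called in the fit as reported, 0 with column totals, 0 with a mean of 5 or more reads, 2 with no filter, and 0 to 2 with each library left out. The share of all circRNAs called moved too, from 1.14% to 0.355%, 0.293% and 10.8% in those settings and to 0.103 to 3.09% with a library left out. D4 against D0 gave 1 (3.27% of all), 2 with only those 2 stages fitted (7.85%), and 0 to 2 with a library left out (0.205 to 3.57%). D8 against D0 gave 0, and 0 to 2 with a library left out (0.564 to 1.46% of all), and D8 against D4 gave 0, and 0 to 1 (0 to 0.799%). The cause was not tested. The summed level kept its direction in every setting run. Its across-stage adjusted p was 0.0124 and ran from 0.0176 to 0.0639 with a library left out, and D8 minus D0 was 0.90 with DESeq2 (adjusted p = 0.0342) and 0.61 to 1.43 with a library left out.

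The labels do not say that replicate numbers pair libraries, so the numbers were not taken as pairs. Same-numbered replicates deviated together with a correlation of 0.03 to 0.06. With a replicate block 0 isoforms were called across the stages (0.284% of all) and 1 for D4 against D0 (1.21%), and the summed level differed by 1.83. The D4 minus D0 difference in the effective number of isoforms was 1.29, and 0.69 with the reads of the replicates added. On D0 5 isoforms were detected, 9 with 2 or more reads in either library and 3 with 5 or more in both, and on D8 the stricter rule gave 5. Directions turned, without a call on the turned side, when a library was left out. D8 minus D0 ran from -0.14 to 0.10 for e2-4, from -0.55 to 0.44 for e3-5 (0.34 without D8 replicate 2) and from -3.37 to 7.31 for e2-6. D8 minus D4 ran from -0.84 to 0.39 for e2-u2 and from -0.13 to 6.30 for e3-4. The values -3.37, 7.31 and 6.30 are fitted against or for a stage at 0 and give no size. With a library left out, D4 minus D0 ran from -2.76 to 42.3 points for the share of e2-5 and from -1.26 to 43.9 for the share ending at exon 5, negative in both without D0 replicate 1. Of the 5 genes most like Slc10a7, 2 to 4 stayed among the first 5 when a library was left out. Depth limits the isoforms of few reads, since 1 read was up to 33.2 circCPM.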
